A study of Mus musculus with 8 samples.

Results

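The genes examined were 5 members of the interferon-induced transmembrane (Ifitm) family, Ifitm1, Ifitm2, Ifitm3, Ifitm6 and Ifitm10, which were taken by gene symbol from a table of 47493 genes. They were measured by RNA-seq in 8 libraries of endogenous CD8+ T cells from 4 tumor-bearing mice, 1 IL-18Rαhi-enriched and 1 flow-through library from every mouse. All animals were female C57BL/6 mice of 6 to 8 weeks, and all had the same treatment. They received 200000 B16F10 melanoma cells in the skin on day 0, cyclophosphamide at 300 mg/kg on day 3, and 2000000 ex vivo primed Thy1.1+ Pmel-1 T cells, which carry a transgenic receptor for the melanoma antigen gp100, on day 5. IL-2 followed at 10000 IU a day for 3 days, and the CD4-depleting antibody GK1.5 was given weekly at 200 μg from day 10 for 3 weeks. On day 25, inguinal lymph nodes and spleen were taken, and endogenous (Thy1.1-) CD8+ T cells were purified with Thy1.1 beads and a CD8 kit that works by negative selection, which is meant to remove other cell types. Cells bound through a PE-labelled antibody against IL-18Rα formed the enriched fraction, and the cells that passed the column formed the control. No library of untreated mice was used here, so the comparison is between 2 fractions of the same treated animals and not between treatments. Ifitm1 is also one of the genes that the study selected, on a microarray of other samples, as induced by the anti-CD4 antibody.

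Ifitm proteins are small membrane proteins that hinder the fusion of enveloped viruses with cell membranes. Ifitm1 lies mainly at the cell surface, and Ifitm2 and Ifitm3 mainly in endosomes and lysosomes. Type I and type II interferons induce several members through transcription factors that bind interferon-stimulated response elements (ISRE) and gamma-activated sites (GAS) near gene starts, and some members are also expressed without added interferon, as in stem cells and resident memory CD8+ T cells. Ifitm10 differs from the others in sequence and is not known as an interferon target.

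In the mm10 genome, 4 of the 5 members lie in a cluster on chromosome 7, in the order Ifitm2 (140954837 to 140955987, minus strand), Ifitm1 (140967221 to 140969825, plus strand), Ifitm3 (141009586 to 141010770, minus strand) and Ifitm6 (141015699 to 141017924, minus strand). Ifitm10 lies apart on the same chromosome (142325837 to 142373753, minus strand). Their start regions are shown because these neighbouring genes did not change in 1 direction. The windows ran from 250 bases before to 50 bases after each start (RefSeq, GRCm38.p6), and all 5 members had at least 1. Both strands were searched for an ISRE, written as GAAA, any 2 bases and GAAA, which 3.44% of 32851 such windows held, and for a GAS, written as TTC, any 3 bases and GAA, which 8.3% held. Capitals mark a match to the ISRE in Ifitm2 and Ifitm3 and to the GAS in Ifitm6, and the stretch of Ifitm1 held neither.
Ifitm1, chr7:140967826-140968027, plus strand: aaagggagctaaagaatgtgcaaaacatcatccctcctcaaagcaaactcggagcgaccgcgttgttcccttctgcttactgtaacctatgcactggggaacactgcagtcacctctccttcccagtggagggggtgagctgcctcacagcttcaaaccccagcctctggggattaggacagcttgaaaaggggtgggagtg
Ifitm2, chr7:140955988-140956211, minus strand: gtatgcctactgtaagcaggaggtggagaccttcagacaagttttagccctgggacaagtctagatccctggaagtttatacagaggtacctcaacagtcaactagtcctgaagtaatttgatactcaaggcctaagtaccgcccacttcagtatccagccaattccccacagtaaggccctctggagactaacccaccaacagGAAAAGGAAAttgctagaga
Ifitm3, chr7:141010715-141010744, minus strand: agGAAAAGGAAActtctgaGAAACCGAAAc
Ifitm6, chr7:141016884-141016913, minus strand: cccatatgaacTTCCTTGAAacaagagctt

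The stretch of Ifitm2 is upstream of its single annotated transcript, and its match spanned positions -46 to -37. Positions count from the RefSeq start, which for Ifitm2 lies inside the first exon of the GENCODE transcript whose coordinates are given above. The stretch of Ifitm3 lies in its first exon and held 2 matches to the ISRE, at positions 3 to 12 and 20 to 29, and a match to the GAS, TTCTGAGAA, at positions 14 to 22 that overlaps the second of them. The stretch of Ifitm6 crosses the GENCODE start of 1 of its 3 transcripts, with its match at positions -10 to -2. The stretch of Ifitm1 is intronic in the longest of its 3 transcripts and upstream of the others. No match to either motif was in the window of Ifitm1 or in the 3 windows of Ifitm10. The single window of Ifitm1 does not reach the start of its longest transcript, so the bases before that start were not searched. A match describes letters in a window and does not show a bound site.

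The libraries held an estimated 14826000 to 17841000 fragments each. Il18r1, which encodes the receptor chain used for selection, averaged 30.6 FPKM in flow-through libraries and 111 FPKM after enrichment (log2 fold change 1.85, SE 0.15, limma adjusted p = 0.000291). CD8 T-cell identity genes summed to 1280.2 FPKM in flow-through replicate 1 and to between 2048 and 2578 FPKM in the other 7 libraries, so that replicate 1 stood apart. Transcripts of other cells were present in every library, and several moved with the fractions. Summed erythroid progenitor markers were 2971 FPKM in flow-through replicate 1, 1009.6 to 1638 FPKM in flow-through replicates 2 to 4 and 216 to 829.8 FPKM in the enriched libraries, with 3 of 7 genes lower (7 with the mouse as a block, 2 without flow-through replicate 1). Summed monocyte and macrophage markers were 143 to 481 FPKM in flow-through libraries and 451 to 1034 FPKM in the enriched libraries, with 5 of 9 tested genes higher. Markers of conventional dendritic cells were higher for 6 of 7 genes, with sums of 16.4 to 28.6 FPKM and 42.1 to 87.1 FPKM, and those of NK cells, some of which effector CD8+ T cells share, for 5 of 6, with sums of 21.6 to 44.1 FPKM and 86.9 to 185 FPKM. Granulocyte progenitor markers summed to 593 to 3441 FPKM and 577 to 3402 FPKM, with 0 of 9 called (2 higher and 1 lower with the mouse as a block). In replicate 2 of both fractions this sum was above that of the CD8 identity genes. CD4 T-cell markers were higher for 2 of 2, with sums of 8.39 to 12.2 FPKM and 21.3 to 34.7 FPKM. Most of this sum was Zbtb7b, at means of 9.58 and 23.6 FPKM, whereas Cd4 itself averaged 0.662 and 3.93 FPKM. Naive T-cell genes were lower for 5 of 7 (6 with the mouse as a block). Results for the members are therefore also given without flow-through replicate 1 and after scaling to the CD8 identity genes where these change a call or turn a direction. Under that scaling, 3 of 9 monocyte, 5 of 7 dendritic and 3 of 6 NK markers were called higher, and without flow-through replicate 1 the counts were 3, 5 and 4.

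Of the 5 members, 2 were higher in IL-18Rαhi-enriched libraries (Ifitm1 and Ifitm6), 1 was lower (Ifitm2), and Ifitm3 and Ifitm10 did not pass an adjusted p of 0.05 (limma on log2(FPKM + 1), adjusted over 12166 genes). Across all genes tested, 14.1% were called higher and 13.7% lower, 27.8% in all. With the mouse as a block, Ifitm10 joined Ifitm1 and Ifitm6 as higher and Ifitm2 stayed lower, against 22.2% and 22.7% of all genes. After every library was scaled to its CD8 identity genes, Ifitm2 was the only member called, against 3.06% higher and 8.24% lower of all genes. The fractions did not overlap for 4 members, higher in the enriched fraction for Ifitm1, Ifitm6 and Ifitm10 and lower for Ifitm2, against 16.4% and 15.9% of all genes. FPKM counts fragments per length and per library, so levels of different members can be set side by side. Shared sequence limits this, most of all for Ifitm2, as given below.

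**Figure D1:**
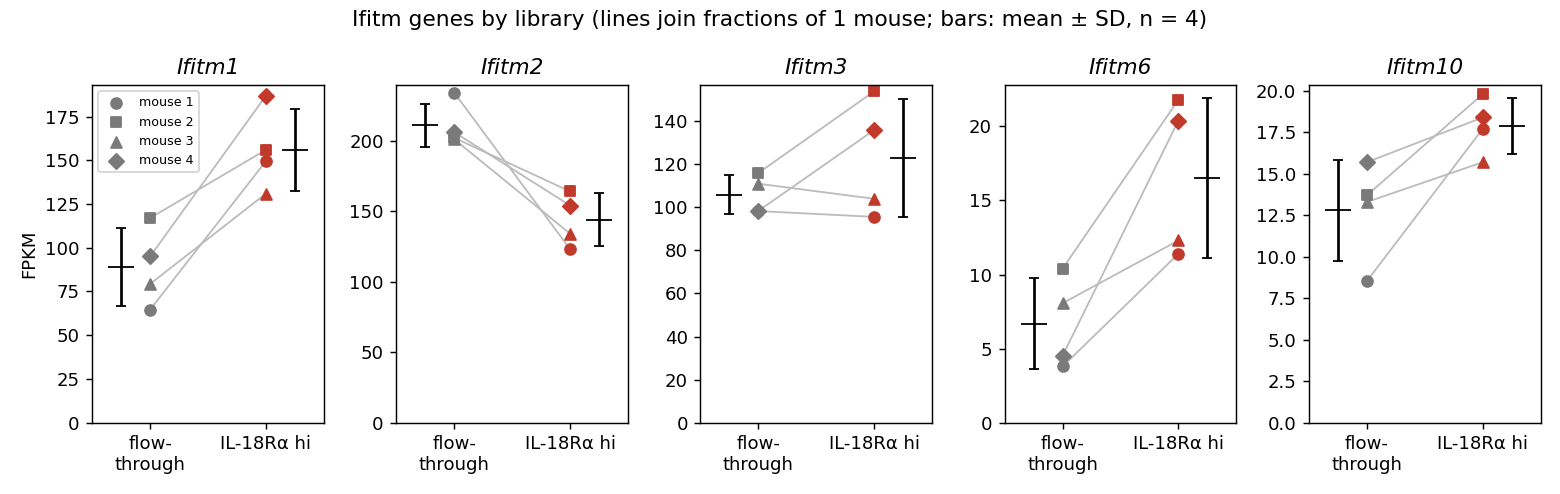
FPKM of each Ifitm member in every library, on linear axes that start at 0, with 1 marker shape a mouse, grey for flow-through and red for IL-18Rαhi-enriched libraries, lines joining the fractions of a mouse, and bars for mean ± SD (n = 4). Ifitm1 and Ifitm6 rise in all 4 mice, Ifitm2 falls in all 4, and Ifitm3 rises in 2 and falls in 2.

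Ifitm1, the member at the cell surface, was measured at 64.6, 117, 79.3 and 95 FPKM in flow-through replicates 1 to 4 and at 149.6, 156, 131 and 187 FPKM in the enriched libraries of the same mice. Every enriched library was above every flow-through library, and flow-through replicate 1 was the lowest. The means were 89.0 ± 22.4 and 156 ± 23.5 FPKM (SD, n = 4), a ratio of 1.75. The log2 fold change was 0.82 (SE 0.18, 95% interval 0.4 to 1.24, limma adjusted p = 0.013), and it was positive in 4 of 4 mice, from 0.41 to 1.2. Within the transcriptome, Ifitm1 moved from rank 1159 to rank 630 of the genes tested. RNA was measured in bulk, so a larger share of cells that express Ifitm1 and more Ifitm1 RNA per cell cannot be told apart, and the part of the dendritic, NK and myeloid markers given above was not tested. Scaling to the CD8 identity genes lowered the median of all genes to -0.36, and the log2 fold change of Ifitm1 was then 0.48, 0.84 above that median, and did not pass (limma adjusted p = 0.0969). This scaling moves the fold changes of all genes by the same amount, so a distance from their median does not depend on it.

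Ifitm2, an endosomal member, was measured at 234, 202, 201 and 206 FPKM in flow-through libraries and at 123, 164, 134 and 154 FPKM in the enriched fraction. The fractions did not overlap, with flow-through replicate 1 the highest library and its enriched partner the lowest. The mean fell from 211 ± 15.3 to 144 ± 19.0 FPKM (SD, n = 4), a flow-through level 1.47 times the enriched one. The log2 fold change was -0.56 (SE 0.11, 95% interval -0.8 to -0.32, limma adjusted p = 0.00716), and it was negative in 4 of 4 mice, from -0.92 to -0.3. Ifitm2 was the highest member in the flow-through, at rank 408 of the genes tested, and stood at rank 693 in the enriched fraction. Scaled to the CD8 identity genes, the log2 fold change was -0.9 (limma adjusted p = 0.046), which was -0.54 relative to the median of all genes.

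Progenitor markers moved with Ifitm2. Their sum over 5 genes was 138 to 166 FPKM in flow-through libraries and 43.6 to 71.3 FPKM in the enriched libraries, none was at 0, and 4 of 5 were lower (5 with the mouse as a block). The fractions did not overlap for this sum, as for Ifitm2 and for 15.9% of all genes in that direction. Within the flow-through, however, the sum was highest in replicate 2, at 166 FPKM against 148 FPKM in replicate 1, where Ifitm2 was highest. Kit, the stem cell factor receptor, was at 38.3, 30.4, 30 and 30.4 FPKM in flow-through libraries and at 11, 15.5, 15 and 16 FPKM after enrichment (log2 fold change -1.12, limma adjusted p = 0.00136). Kit was highest in flow-through replicate 1, whereas Cd34, Gata2 and Meis1 were lowest there among the flow-through libraries. Naive T-cell genes (5 of 7) and erythroid progenitor markers (3 of 7) were also lower, as given above. Among all genes tested, 13.7% were called lower, and 22.7% with the mouse as a block. The part of progenitor, erythroid or naive T cells in the decrease of Ifitm2 was not tested.

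Ifitm3, an endosomal member known for restricting influenza virus, was measured at 98.3, 116, 111 and 98.4 FPKM in flow-through libraries and at 95.6, 154, 104 and 136 FPKM in the enriched fraction. The fractions overlapped, with replicates 2 and 4 higher and replicates 1 and 3 slightly lower after enrichment. The means were 106 ± 8.88 and 123 ± 27.4 FPKM (SD, n = 4). The log2 fold change was 0.19 (SE 0.15, 95% interval -0.16 to 0.54, limma adjusted p = 0.389). An increase of up to 0.54 on the log2 scale thus remained within the interval. Scaling to the CD8 identity genes turned the direction, at -0.16 (limma adjusted p = 0.617), which was 0.2 above the median of all genes under that scaling.

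Ifitm6, a rodent member of the cluster, had the lowest level of the 5 in the flow-through. It was measured at 3.79, 10.4, 8.06 and 4.51 FPKM there and at 11.4, 21.8, 12.3 and 20.4 FPKM in the enriched fraction. The lowest enriched library was just above the highest flow-through library. The mean rose from 6.69 ± 3.1 to 16.5 ± 5.39 FPKM (SD, n = 4), a ratio of 2.46. The log2 fold change was 1.22 (SE 0.32, 95% interval 0.49 to 1.95, limma adjusted p = 0.0236), and it was positive in 4 of 4 mice, from 0.55 to 1.95. The call was lost without flow-through replicate 4, without enriched replicate 2 and without enriched replicate 4, at log2 fold changes of 1.09, 1.07 and 1.11 with limma adjusted p-values of 0.0548, 0.0679 and 0.0673. It was also lost under CD8 identity scaling (0.88, limma adjusted p = 0.0765).

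Monocyte and macrophage markers moved with Ifitm6. Their sum was 143, 481, 204 and 292 FPKM in flow-through replicates 1 to 4 and 451, 1034, 487 and 719.8 FPKM in the enriched libraries. In each fraction the sum was highest in replicate 2 and lowest in replicate 1, and Ifitm6 was likewise highest in replicate 2 and lowest in replicate 1. In flow-through replicates 3 and 4, however, the order differed, with Ifitm6 at 8.06 and 4.51 FPKM and the sum at 204 and 292 FPKM. None of the markers was at 0 in all libraries, and Lyz2, the macrophage lysozyme, was at 99.0 to 347 FPKM and 338 to 811 FPKM. A block for the mouse gave 8 of the 9 tested markers as higher in place of 5, and leaving out flow-through replicate 1 gave 3. Among all genes tested, 22.2% were called higher with the block and 14.1% without it. Neutrophil markers summed to 28.9 to 152 FPKM and 77.3 to 682 FPKM, with 0 of 5 tested genes called and 3 higher with the block, and Ly6g did not exceed 0.447 FPKM. Basophil and mast cell markers summed to 94.7, 279, 117 and 181 FPKM and to 263, 610.3, 288 and 428 FPKM, also highest in replicate 2 and lowest in replicate 1 of each fraction. Of these 6 genes 2 were higher, the basophil proteases Mcpt8 (1.45, limma adjusted p = 0.023) and Prss34 (1.65, limma adjusted p = 0.0201), and 1 was lower, with 4 higher when the mouse was a block. Granulocyte progenitor markers, of which 0 of 9 were called, were likewise highest in replicate 2 and lowest in replicate 1 of each fraction. The part of myeloid cells and basophils in the difference of Ifitm6 was not tested.

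**Figure D2:**
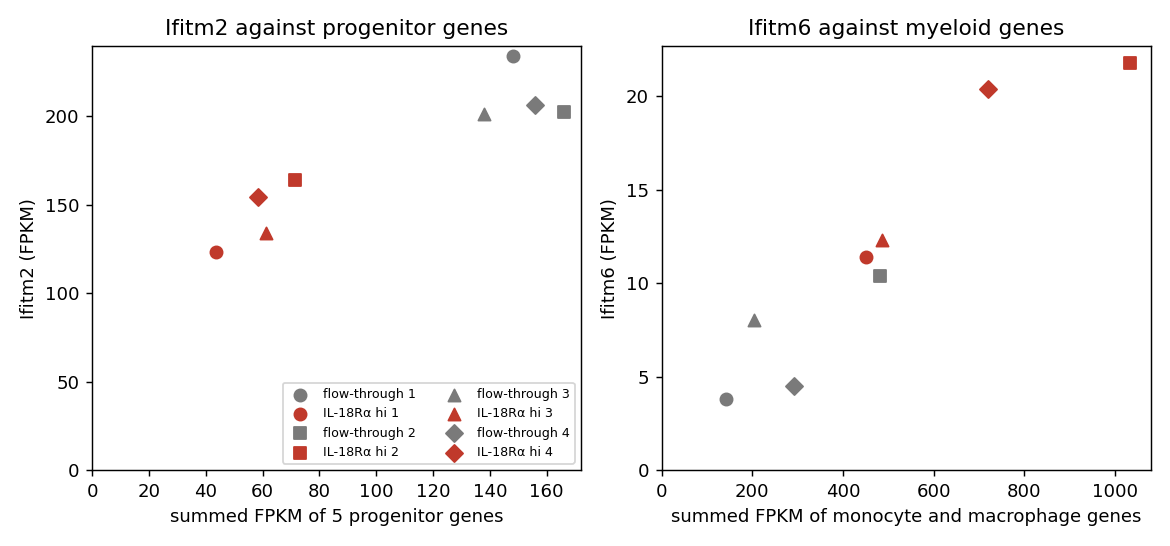
FPKM of Ifitm2 against the summed FPKM of 5 progenitor markers (left) and of Ifitm6 against the summed FPKM of monocyte and macrophage markers (right), with 1 point a library, grey for flow-through and red for enriched, and 1 marker shape a mouse. Ifitm2 and the progenitor sum are both higher in all flow-through libraries than in all enriched ones, but within the flow-through Ifitm2 is highest in replicate 1 and the sum in replicate 2, and Ifitm6 and the monocyte sum are both lowest in flow-through replicate 1 and highest in enriched replicate 2.

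Ifitm10 was measured at 8.52, 13.7, 13.3 and 15.7 FPKM in flow-through libraries and at 17.7, 19.8, 15.7 and 18.4 FPKM in the enriched fraction. The fractions did not overlap, although the highest flow-through and the lowest enriched library both rounded to 15.7 FPKM. The means were 12.8 ± 3.04 and 17.9 ± 1.68 FPKM (SD, n = 4). The log2 fold change of 0.48 (SE 0.17, 95% interval 0.1 to 0.86) did not pass the threshold (limma adjusted p = 0.0636). It was positive in 4 of 4 mice, from 0.21 to 0.98, with the highest value in mouse 1. With the mouse as a block Ifitm10 passed (limma adjusted p = 0.027), and it also passed without flow-through replicate 1, at a smaller fold change of 0.31 (limma adjusted p = 0.0487), and without flow-through replicate 4, at 0.58 (limma adjusted p = 0.0405).

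**Figure D3:**
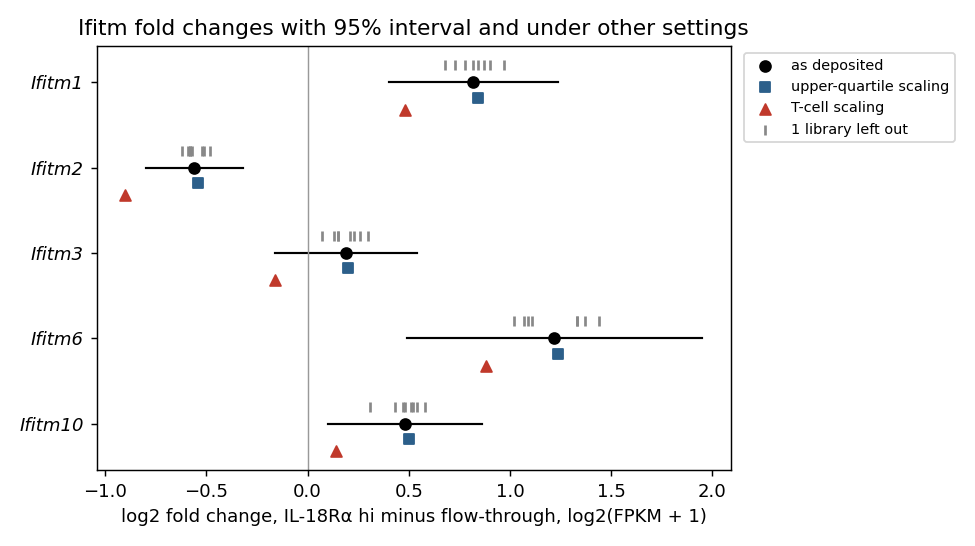
Log2 fold change of each member, enriched minus flow-through on the log2(FPKM + 1) scale, with circles and 95% intervals for the deposited values, squares for upper-quartile scaling, triangles for scaling to the CD8 identity genes (T-cell scaling) and ticks for fits without 1 library. Ifitm2 stays negative in all settings drawn, Ifitm1, Ifitm6 and Ifitm10 stay positive, and Ifitm3 turns from 0.19 to -0.16 under CD8 identity scaling.

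The balance between the members differed between the fractions, while their summed level overlapped. The sum of the 5 was 425 ± 23.1 FPKM in flow-through libraries and 456 ± 68.9 FPKM after enrichment (SD, n = 4). Ifitm2 made up 49.8% ± 5.43 of this sum in flow-through libraries but 31.6% ± 1.63 in enriched ones. The share of Ifitm1 was 20.8% ± 4.19 and 34.3% ± 3.36. Ifitm3 held 24.9% ± 1.5 and 26.7% ± 2.4 of the sum. In the flow-through, Ifitm2 was above Ifitm3 in 4 of 4 libraries by a geometric mean of 1.99 times, whereas Ifitm3 and Ifitm1 were in that order in 3 of 4 and did not differ beyond their spread. In the enriched fraction Ifitm1 and Ifitm2 could not be ordered, with Ifitm1 above in 2 of 4 libraries, and Ifitm2 was above Ifitm3 in 4 of 4 by 1.19 times. Ifitm10 and Ifitm6 were the lowest members in both fractions.

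**Figure D4:**
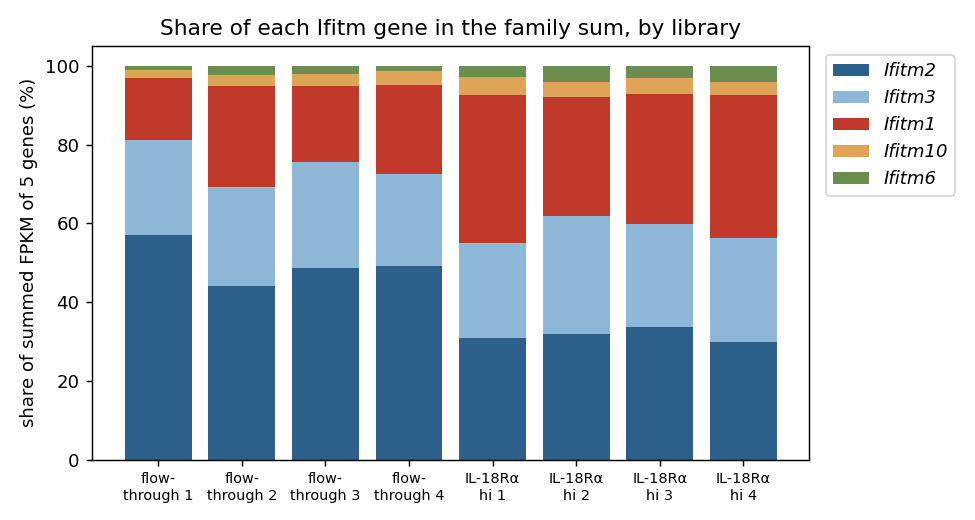
Share of each member in the summed FPKM of the 5 Ifitm genes, in percent, with 1 stacked bar a library. Ifitm2 takes 44.1% to 57.1% of the sum in flow-through libraries and 29.9% to 33.7% in enriched libraries, and Ifitm1 takes 15.8% to 25.5% and 30.2% to 37.7%.

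Log2 ratios of FPKM + 1 between members within a library depend little on how the library was scaled, although the added 1 makes those with Ifitm6 smaller in size, and 4 were tested by the exact two-sided permutation test, for which 0.0286 was the smallest p possible. The log2 ratio of Ifitm1 to Ifitm2 was -1.84, -0.79, -1.33 and -1.11 in flow-through replicates 1 to 4, against 0.28, -0.08, -0.03 and 0.28 after enrichment. The fractions did not overlap, and the ratio was higher in the enriched library of 4 of 4 mice. Its difference was 1.38 (exact permutation p = 0.0286, adjusted over 4 ratios 0.0381). The log2 ratio of Ifitm2 to Ifitm3 averaged 0.99 ± 0.2 and 0.25 ± 0.13 (SD, n = 4), a difference of -0.74 (exact permutation p = 0.0286, adjusted 0.0381). That of Ifitm6 to Ifitm3 averaged -3.88 ± 0.47 and -2.85 ± 0.15, a difference of 1.03 with the same exact permutation p and adjusted p. The ratio of Ifitm1 to Ifitm3 averaged -0.28 ± 0.31 and 0.36 ± 0.26, a difference of 0.64 that missed the threshold (exact permutation p = 0.0571) and was higher in 3 of 4 mice. This permutation did not pair the libraries by mouse, and a test paired by mouse could not reach the threshold with 4 mice. The ratio of Ifitm2 to Ifitm3 was lower, and that of Ifitm6 to Ifitm3 higher, in the enriched library of 4 of 4 mice. Unequal changes of the cluster members thus rest on the unpaired test and on these directions.

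Similar sequence limits how well levels of some members can be separated. Of the 50-base words in the Ifitm2 transcript, 294 of 606 (48.5%) also occurred in transcripts of other genes. Gm45717, which overlaps Ifitm2 on the same strand, held 219 of them and was not used here, and Ifitm3 held 20. Of the other look-alike genes, Gm7676, Gm8865 and Gm2840 were listed at 0 in every library, and Gm11951 did not exceed 0.244 FPKM. Gm45308 and Gm45432, which held 47 and 17 of the Ifitm2 words, had no values here, and neither did Gm45717, so their levels are not known. Ifitm1 shared 53 of 1056 words and Ifitm3 shared 63 of 629, with 15 in common between Ifitm1 and Ifitm3. Ifitm6 shared none of 854, and the 168 shared words of Ifitm10 were all in Gm49369, an overlapping gene that was not used here.

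Across the 8 libraries, Ifitm1, Ifitm6 and Ifitm10 varied together, and Ifitm2 varied against them. Pearson's r of log2(FPKM + 1) was 0.9 for Ifitm1 and Ifitm6, 0.88 for Ifitm1 and Ifitm10 and -0.78 for Ifitm1 and Ifitm2. These values include the difference between the fractions. As deviations from the fraction means, the same pairs gave 0.68, 0.74 and -0.06, while Ifitm3 and Ifitm6 gave 0.84 and Ifitm2 and Ifitm3 gave 0.71. The points share mice and fractions, and the values are descriptions.

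Among 9055 genes that averaged 5 FPKM or more, those most like each member over the 8 libraries were named by Pearson's r, which again includes the difference between the fractions. For Ifitm1 they were Grb2 (0.991), an adaptor of receptor signaling, Tspan5 (0.99), a tetraspanin, Spg21, Mgat2 and Rab29 (0.987 each). Ifitm2 was followed most closely by Klhl22 (0.998), Dag1 (0.987), Tmem216 (0.977), Arap3 (0.975) and Kit (0.973). For Ifitm3 the values were lower, with Rhbdd1 at 0.953 and the hexokinase Hk2, Swap70, Ctsz and Phf14 between 0.891 and 0.9. Ifitm6 ran with Mospd2 (0.971), Slc33a1 (0.968) and 3 genes of the endoplasmic reticulum, Sdf2l1, Rrbp1 and the chaperone Hsp90b1 (0.963 each). Ifitm10 ran with Gpsm3 (0.984), the leukocyte tetraspanin Cd37 (0.977), Arid3b, Adrbk1 and Lst1.

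Other interferon-induced genes are given beside the members. Of 24 of them, 4 were higher and 1 was lower, against 14.1% and 13.7% of all genes. Their median log2 fold change was 0.15, beside -0.018 over all genes. Ifi27l2a, with the largest change in the list, was at 164 to 369 FPKM in flow-through libraries and 581 to 707 FPKM after enrichment (log2 fold change 1.22, limma adjusted p = 0.00875). The antiviral GTPase Mx1 (0.96, limma adjusted p = 0.0187), the 2′-5′ oligoadenylate synthetase Oas3 (0.93, limma adjusted p = 0.00296) and the ubiquitin-like Isg15 (0.48, limma adjusted p = 0.0221) were also higher. Oasl1, which limits Irf7 translation, was lower (-1.1, limma adjusted p = 0.00412). The other 19 did not pass, Ifit1 among them (0.53, limma adjusted p = 0.129, and 0.0192 with the mouse as a block). With the mouse as a block 6 were higher and 1 lower, against 22.2% and 22.7% of all genes. Under CD8 identity scaling 2 were higher and 2 lower, against 3.06% and 8.24%. Ifi27l2a and Oas3 stayed higher, and Oas2 joined Oasl1 as lower (-0.69, limma adjusted p = 0.0414). Mx1 (0.62, limma adjusted p = 0.0507) and Isg15 (0.14, limma adjusted p = 0.581) did not pass under that scaling. Of the 18 genes of the list with a start window, 12 held an ISRE, as Ifitm2 and Ifitm3 did.

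**Figure D5:**
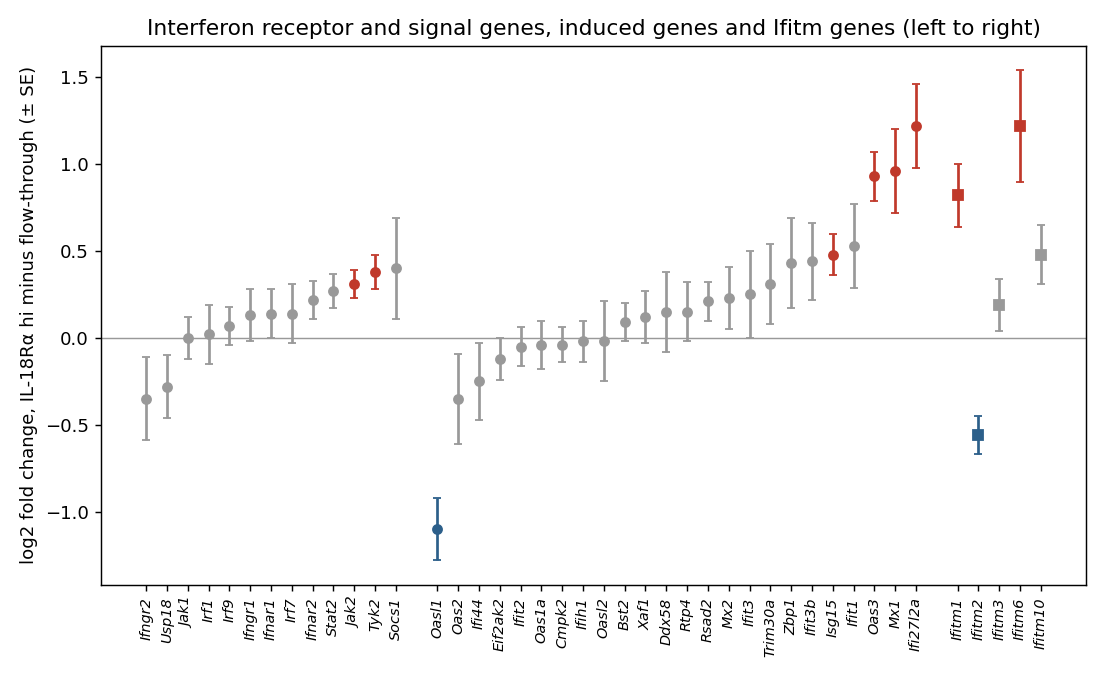
Log2 fold change ± SE, enriched minus flow-through on the log2(FPKM + 1) scale, of 13 interferon receptor and signal genes, 24 interferon-induced genes and the 5 Ifitm members (squares), from left to right, in red for higher and blue for lower at limma adjusted p under 0.05 and in grey otherwise. Among interferon-induced genes 4 are red and Oasl1 is blue, and among the members Ifitm1 and Ifitm6 are red and Ifitm2 is blue.

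Upstream, Ifng, which encodes interferon-γ, was at 6.03 to 12.3 FPKM in flow-through libraries and 20.5 to 30.1 FPKM after enrichment (log2 fold change 1.35, limma adjusted p = 0.00347), whereas Ifnb1, Ifna2, Ifna4, Ifnl2 and Ifnl3 were listed at 0 in all libraries. Of 13 receptor and signal genes, 2 were higher, the receptor kinases Tyk2 (0.38, limma adjusted p = 0.0208) and Jak2 (0.31, limma adjusted p = 0.0188), and none was lower. Over all genes, 14.1% were higher and 13.7% lower. Neither Ifnar1, Ifnar2, Ifngr1 nor Ifngr2, the receptor chains, passed, with log2 fold changes between -0.35 and 0.22, although Ifngr2 was lower with the mouse as a block (-0.35, limma adjusted p = 0.0489). The median of the list was 0.14. The list gave 3 higher and 1 lower with the mouse as a block (22.2% and 22.7% of all genes). Under CD8 identity scaling it gave 0 higher and 1 lower (3.06% and 8.24% of all genes). Jak2 turned to -0.03 and Tyk2 came to 0.03 under CD8 identity scaling.

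Of 9 genes known to modify or bind Ifitm proteins, 1 was higher and 3 were lower, against 14.1% and 13.7% of all genes. Their median was -0.28. Cd9, a tetraspanin, was at 17.9 to 33.5 FPKM in flow-through libraries and 46.0 to 60.0 FPKM after enrichment (log2 fold change 0.96, limma adjusted p = 0.00839). Cd81, the tetraspanin that binds Ifitm1 at the surface of lymphocytes, fell from between 42.1 and 90.2 FPKM to between 30 and 31.7 FPKM (-0.82, limma adjusted p = 0.0242). Nedd4, a ubiquitin ligase that promotes turnover of Ifitm3, fell from between 67.0 and 123 FPKM to between 40.7 and 47.9 FPKM (-0.9, limma adjusted p = 0.00935), and the membrane contact protein Vapa was slightly lower (-0.28, limma adjusted p = 0.0139). Zmpste24, a protease that works with Ifitm proteins, was at -0.03 (limma adjusted p = 0.787). For Cd81 and Nedd4, flow-through replicate 1 was the highest library, as for the summed erythroid markers, and the part of those cells was not tested. Cr2, the complement receptor of B cells, did not pass (-0.49, limma adjusted p = 0.236) but was lower with the mouse as a block (limma adjusted p = 0.0217). Under CD8 identity scaling 1 of the 9 was higher and 1 lower, against 3.06% and 8.24% of all genes.

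Genes that flank the cluster are also given beside the members. Of 7 that were tested, B4galnt4, a glycosyltransferase (1.24, limma adjusted p = 0.00052), and Pkp3, the desmosomal protein plakophilin (0.97, limma adjusted p = 0.00331), were higher, and Sirt3, the mitochondrial deacetylase, was lower (-0.41, limma adjusted p = 0.0129). Over all genes, 14.1% were higher and 13.7% lower. The median of the flanking genes was 0.15. Psmd13, a proteasome subunit next to Sirt3, was at 0.22 (limma adjusted p = 0.148). Under CD8 identity scaling 2 were higher and 0 lower, against 3.06% and 8.24% of all genes. Sirt3 was then at -0.76 and did not pass (limma adjusted p = 0.0587). Of the remaining family, Ifitm5, the bone member, did not exceed 0.287 FPKM and Ifitm7 did not exceed 0.537 FPKM, both under the mean of 1 FPKM needed for a test. Prrt1, a related dispanin, was at -0.31 (limma adjusted p = 0.434), and passed as lower with the mouse as a block (limma adjusted p = 0.0224).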

How the data were processed

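RNA-seq values of 8 libraries were used as deposited. Per the labels and the study's methods, the authors made stranded libraries from poly(A) RNA, removed reads of low quality, mapped the rest to mm10 with TopHat, and computed FPKM (fragments scaled by transcript length and library depth) with Cufflinks 2.1.1, with correction for multi-mapped reads and fragment bias. The annotation release was not given in the sources used here. Columns of the authors' own fold changes, p-values and q-values, which compare the same fractions, were not used. FPKM holds no whole reads, so depth was estimated from the lowest values of long single-transcript genes, and no counting interval was made.

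The test was limma (version 3.58.1, R 4.3.3) with a variance trend and no block for the mouse, fitted to log2(FPKM + 1) of all genes that averaged 1 FPKM or more. Benjamini-Hochberg adjusted p under 0.05 was called. The added 1 makes fold changes of low genes smaller. The script was tested on simulated data. Libraries of the same number came from the same mouse, and their deviations from the fraction means correlated at 0.308 to 0.66, so the numbers pair the samples, and a fit with the mouse as a block is given where it changes the call of a named gene or moves a count of calls by over 1.5 times. Alternatives were pseudocounts of 0.1 and 0.5, no filter, a filter at 5 FPKM, upper-quartile scaling, scaling to 8 CD8 identity genes, no variance trend, and leaving out each library. The list counts under the block, under CD8 identity scaling and without flow-through replicate 1 were added after seeing the data.

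The members and lists were chosen with earlier results of these data known, and 1 listed gene is not reported here. Named were all 5 members, the 5 genes most like each, and from each list up to 4 genes with the greatest changes past and not past the threshold, besides receptors and signal genes by role. Isg15, Zmpste24, Ly6g, Meis1 and Il18r1 were named outside that rule, after their values were seen. Of the table's identifiers, 98.9% were in GENCODE M21, which gave coordinates, and start sequences came from RefSeq (GRCm38.p6).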

Additional observations from a re-analysis of the deposited data

Results flagged for a closer look

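Ifitm2 in flow-through replicate 1, at 234 FPKM, stood apart from the other 3 flow-through libraries, which were between 201 and 206 FPKM. The gap was 0.853 of the range, above Dixon's 95% critical value for 4 samples. It was the only such case among 18 groups of libraries examined, and chance gives about 1 in 20 groups. Without this library the log2 fold change of Ifitm2 was still negative and passed the limma threshold.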

How the results depend on the processing

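The decrease of Ifitm2 kept its direction and passed the limma threshold under all 16 alternatives, with -0.62 to -0.48 when 1 library was left out. Ifitm1 kept both under 15 of 16, with 0.68 to 0.97 when 1 library was left out, and did not pass under CD8 identity scaling (0.48). Ifitm6 lost its call without a filter on low values (1.22, limma adjusted p = 0.0514), under CD8 identity scaling (0.88) and in 3 of 8 fits that left out 1 library (1.02 to 1.44 over all 8). Ifitm10 passed with the replicate block (0.48, limma adjusted p = 0.027) and in 2 of 8 leave-one-out fits, which ran from 0.31 to 0.58. Ifitm3 reversed under CD8 identity scaling (-0.16) and ran from 0.07 to 0.3 when 1 library was left out. Over all genes, 1720 were higher and 1664 lower, against 2705 and 2763 with the replicate block, 372 and 1003 under CD8 identity scaling, and 1107 to 1813 and 939 to 1780 when 1 library was left out. Pairing the ratios by mouse (the replicate block, by sign flips within mice) could not reach the threshold with 4 mice, so no call was possible that way for Ifitm1/Ifitm2 (1.38), Ifitm2/Ifitm3 (-0.74) and Ifitm6/Ifitm3 (1.03). When 1 library was left out, these differences ran from 1.19 to 1.54, from -0.81 to -0.66 and from 0.87 to 1.21, and that of Ifitm1/Ifitm3 from 0.53 to 0.75. The exact permutation p of Ifitm6/Ifitm3 rose to 0.0571 without any 1 enriched library, and that of Ifitm1/Ifitm3 fell to 0.0286 without enriched replicate 2. The replicate block changed no other call of a member. The causes of these shifts were not tested. Depth is known only as an estimate, so counting error was not separated from the spread between mice.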
